A study of Sus scrofa with 24 samples.

Results

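The 7 genes DPP4, FAP, ANPEP, ENPEP, LNPEP, MME and ACE were followed in the sow utero-tubal junction (UTJ), the narrow link from the uterine horn to the oviduct, in which spermatozoa are stored. They were chosen by their symbol in the annotation of the array. The set was drawn up with earlier results of these data known, among them values of DPP4 and ACE in mated sows, so that every mated against control value of DPP4 and ACE is a description here and carries no test. Their mated against SP-infused values use the same mated arrays and are descriptions too. Each of the 7 genes had exactly 1 probe set, among 12307 genes with a symbol of their own and 27558 probe sets in all.

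Peptidases anchored on the cell surface cut short peptides at the place where those peptides meet their receptors, and so set how long a hormone, a neuropeptide or a chemokine stays active. DPP4 and its closest relative FAP are serine enzymes that remove a pair of residues from the start of peptides after a proline. ANPEP, ENPEP and LNPEP are zinc aminopeptidases that remove single residues from the same end, whereas MME and ACE are zinc enzymes that cut inside a chain or take a pair of residues from its far end. Epithelia, stromal fibroblasts, vessels and leukocytes carry these enzymes, and in the female tract their substrates include oxytocin, angiotensin, tachykinins and chemokines.

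UTJ tissue was hybridised to 24 arrays, each a Porcine Gene 1.0 ST chip of Affymetrix. Of these, 8 were labelled mated (natural mating), 8 SP-infused (50 ml of sperm-free seminal plasma) and 8 control (50 ml of the extender BTS, Beltsville Thawing Solution), with tissue collected within 24 h. All were weaned Swedish Landrace sows in standing oestrus, and the study's methods describe the controls as cervically given BTS in one place and as not inseminated in another, so the labels were followed. Each group held 4 sows, both sides of whose tract were taken, but no source used here ties an array to its sow, so every array counted as a unit. The p-values are therefore smaller, and the intervals narrower, than a count of sows would give. Values are log2 intensities, in which a difference of 1 is a doubling, and levels of different genes cannot be set against each other.

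The tissue label was checked against marker genes. The oviduct glycoprotein OVGP1 was uneven, from 5.53 to 11.9 in mated arrays, 5.36 to 11.9 in SP-infused arrays and 4.49 to 11.9 in control arrays. Its lowest value, in control array 3, lay below that array's median of 5.87, so OVGP1 was not clear in every array. The epithelial gene EPCAM averaged 9.59, 9.96 and 9.99, and the smooth muscle gene ACTA2 12.0, 11.9 and 12.0, in mated, SP-infused and control arrays. Any 2 arrays correlated at 0.936 to 0.990 over all probe sets. Array medians lay within 5.75 to 5.99, and control array 1 had the narrowest distribution, with an SD of 1.91 where the widest was 2.14.

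No probe set passed an adjusted p of 0.05 (limma, Benjamini-Hochberg over all probe sets) in mated against control, SP-infused against control or mated against SP-infused arrays, which is 0% of 27558 in each. At an unadjusted p under 0.05, 2.88% of probe sets were higher and 8.52% lower in mated than in control arrays. The shares were 1.4% higher and 3.76% lower in SP-infused than in control arrays, and 1.52% higher and 1.82% lower in mated than in SP-infused arrays. Among the 7 peptidases 1, DPP4, was in the higher share in mated against control and 0 were in any of the other shares, and since the choice of DPP4 used that contrast nothing is read from its count. The ranges of the groups overlapped for 7 of 7 peptidases in every comparison.

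The plot of the peptidases by array shows this overlap gene by gene.

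**Figure D1:**
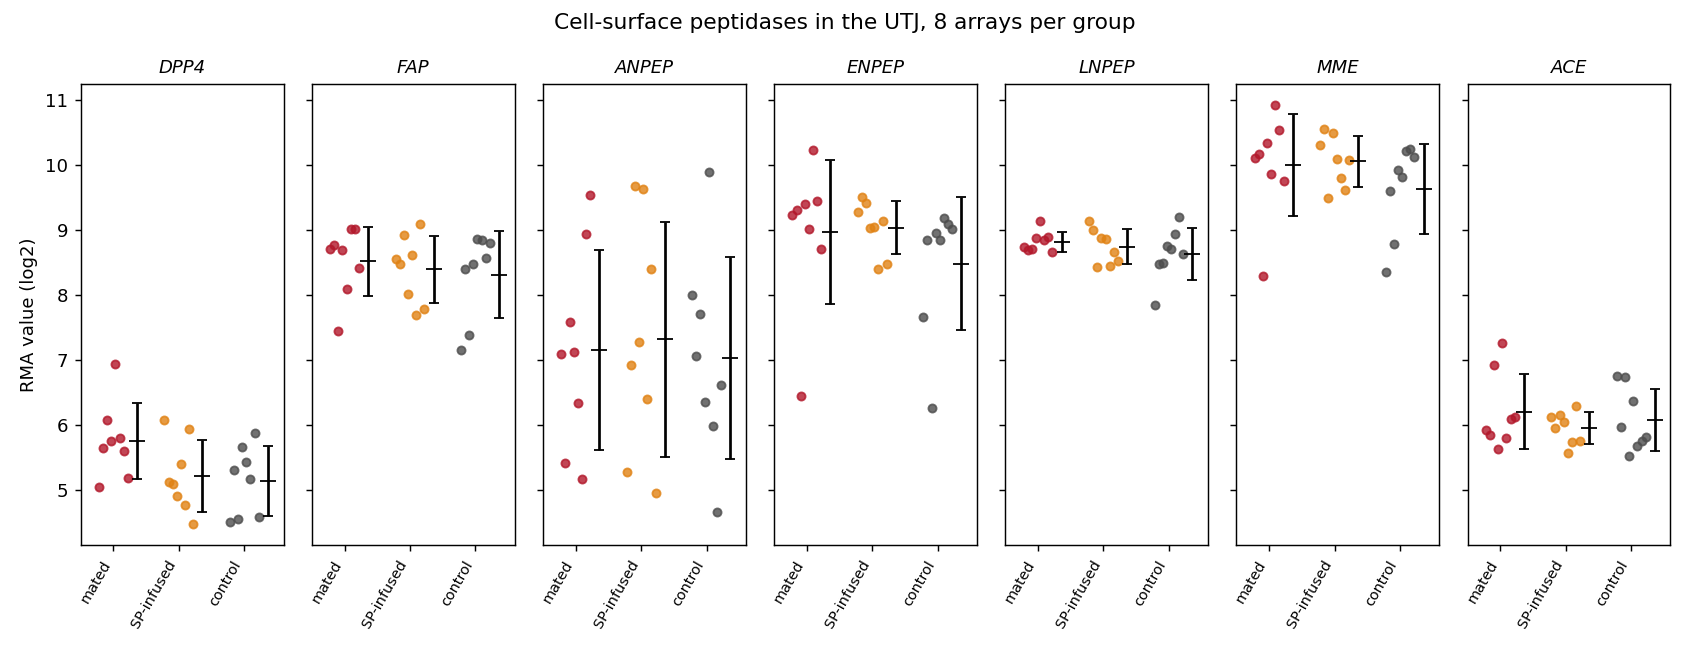
RMA values (log2, y axis) of 7 cell-surface peptidases in 8 mated, 8 SP-infused and 8 control arrays, a point per array, with the group mean and SD as the black bar beside each group. The mated mean of DPP4 (5.76) is above the SP-infused (5.22) and control (5.14) means, and ANPEP spreads from 4.66 to 9.90 over the 24 arrays.

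DPP4, which trims glucagon-like peptides, neuropeptide Y and several chemokines, had a higher mean in mated arrays than in either of the other groups. Its mean over all arrays, 5.38, lay below the lowest array median of 5.75, so DPP4 gave a weaker signal than a typical probe set. In replicate order its values were 5.05, 5.66, 6.08, 5.75, 6.95, 5.80, 5.60 and 5.19 in mated arrays. They were 6.08, 5.12, 5.10, 4.91, 5.40, 4.78, 5.94 and 4.48 in SP-infused arrays, and 4.52, 5.31, 4.55, 5.67, 5.44, 5.18, 5.88 and 4.59 in control arrays. Mated array 5 stood above all others, 6 of 8 mated arrays lay above the control median, and no mated array was among the 6 lowest values of the series.

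The mean of DPP4 was 5.76 ± 0.58 in mated arrays, 5.22 ± 0.55 in SP-infused arrays and 5.14 ± 0.53 in control arrays (SD, n = 8 each). The difference of mated and control arrays was 0.62 (SE 0.26), a 1.53-fold higher level. Leaving out mated array 5 brought this difference to 0.45, and array weights gave the same 0.45. The difference was positive in each of the alternatives tried. These reuse the values known when DPP4 was chosen, so the sign adds no support.

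SP-infused minus control was close to 0 for DPP4, at 0.08 (95% interval -0.46 to 0.62, adjusted p = 0.964, limma), and changed sign when either of SP-infused arrays 1 and 7 or control arrays 1 and 3 was left out. Mated minus SP-infused was 0.54, and 7 of 8 mated arrays lay above the SP-infused median. This difference rests on the mated arrays whose values were known when DPP4 was chosen, so it is a description. A difference as large as the 0.62 of mated arrays lies at the upper end of the SP-infused interval, so the arrays do not show that infusion left DPP4 alone.

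Markers of cells known to carry DPP4 were read beside it. The mean over 22 measured T and NK cell genes ran from 4.74 to 5.68 in mated arrays, 4.86 to 5.34 in SP-infused arrays and 4.85 to 5.48 in control arrays, and correlated with DPP4 at r = -0.10 (Spearman's rho -0.17) over the 24 arrays. The mean over 12 epithelial genes correlated with DPP4 at r = -0.14 (rho -0.11). Among the 11 cell lists the strongest relation was that of the mean of 4 mast cell genes, at r = -0.48 (rho -0.38). It was -0.56 within groups and -0.29 without the 2 arrays farthest from the median of that mean. That mean was 6.37 in mated arrays, 6.39 in SP-infused arrays and 6.31 in control arrays, and its part in the values of DPP4 was not tested. These are descriptions over arrays that share sows, so no p is given for any correlation here. In bulk tissue fewer cells of a type and less RNA per cell cannot be told apart.

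The genes whose values were most like those of DPP4 over 24 arrays were the microRNA gene MIR628 (r = 0.84), the sodium-proton exchanger SLC9A7 (0.82), the paracaspase MALT1 (0.82), the stress-induced sestrin SESN1 (0.81) and the zinc finger gene ZNF292 (0.80). After each group's mean was taken away, MIR628 stayed first (0.80), followed by STAU2, ATG14, FBXL20 and SESN1 at 0.80 to 0.79. For MIR628 and SESN1, which stand in both lists, the resemblance was thus also present within the groups. SLC9A7, MALT1 and ZNF292 were not among the first 5 there. Each list is the top of a ranking over 12307 genes, so high r values come partly from the ranking itself. MIR628 averaged 5.76 ± 0.45 in mated arrays, 5.33 ± 0.52 in SP-infused arrays and 5.18 ± 0.28 in control arrays (SD, n = 8 each).

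In the pig assembly Sscrofa11.1, DPP4 and FAP lie on chromosome 15 with a single gene between them, GCG, which encodes the precursor of the glucagon-like peptides that DPP4 cuts. GCG was near the bottom of the array's scale, at 2.88, 2.89 and 2.95 in mated, SP-infused and control arrays, with no array above 3.45. FAP did not follow DPP4 closely in spite of its position (r = 0.32, rho 0.31).

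FAP, which is known from activated fibroblasts and can also cut collagen fragments, differed little between groups. The mated arrays ran from 7.45 to 9.02 (median 8.70), the SP-infused arrays from 7.70 to 9.10 (median 8.52) and the control arrays from 7.15 to 8.87 (median 8.52). Mated array 3 and control arrays 1 and 3 were the lowest of the 24. Mated minus control was 0.21 (SE 0.27, adjusted p = 0.783, limma), SP-infused minus control 0.08 (adjusted p = 0.964) and mated minus SP-infused 0.12 (adjusted p = 0.998). The first of these was 0.04 without control array 1, 0.08 without control array 3 and 0.36 without mated array 3. The genes most like FAP were LAMP2 (r = 0.92) and the stromal marker FBN1 (r = 0.91).

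Among 9 listed relatives of DPP4, 5 were measured (DPP8, DPP10, PREP, PREPL and APEH). Of these, 1 passed an unadjusted p under 0.05, DPP10, a relative that lacks catalytic activity and assists potassium channels, at 4.45 ± 0.71 in mated and 3.94 ± 0.34 in control arrays, a difference of 0.52 (adjusted p = 0.403, limma). DPP10 was low on the array's scale, with both means under 5. In mated against control 2.88% of all probe sets were higher at that p, and nothing is read from 1 of 5 genes. The median difference of the 5 was 0.09 in mated against control and 0.12 in SP-infused against control, where the median over all 27558 probe sets was -0.05 and -0.04.

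ANPEP (aminopeptidase N), an enzyme of epithelial brush borders, was the most variable of the peptidases. Its values in replicate order were 7.09, 5.43, 7.58, 7.12, 6.35, 5.17, 8.94 and 9.54 in mated arrays. They were 5.29, 6.92, 9.67, 7.29, 9.63, 6.40, 8.41 and 4.95 in SP-infused arrays, and 8.01, 7.06, 7.71, 6.35, 9.90, 5.99, 4.66 and 6.61 in control arrays. Each group held arrays near both ends of this range of 5.23 log2 units.

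The SD of ANPEP left after the group means was 1.64, above that of 99.9% of probe sets, for which the median was 0.25. The difference of mated and control arrays was 0.12 (SE 0.76, 95% interval -1.44 to 1.68, adjusted p = 0.964, limma). SP-infused minus control was 0.28 (-1.27 to 1.84, adjusted p = 0.959) and mated minus SP-infused -0.17 (-1.72 to 1.39, adjusted p = 0.998). Each of these 3 differences changed sign when single arrays were left out. A difference of 1 log2 unit in either direction lies inside each of these 3 intervals.

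ANPEP moved with epithelial genes. Over the 24 arrays it correlated with the mean of 12 measured epithelial markers at r = 0.73 (rho 0.73), and at 0.73 within groups. Without the 2 arrays farthest from the median of that mean r was 0.66. The epithelial mean spanned 6.72 to 9.20 in mated arrays, 7.25 to 9.38 in SP-infused arrays and 7.23 to 9.30 in control arrays. Control array 5, the highest in ANPEP, had OVGP1 at 11.9, and control array 7, the lowest, had it at 6.42. Single arrays also went the other way. Control array 3 had the lowest OVGP1 of all, at 4.49, with ANPEP at 7.71, and control array 1 had OVGP1 at 5.71 with ANPEP at 8.01. The part of epithelial content in the spread of ANPEP was not tested.

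The genes most like ANPEP were MST1 (r = 0.92), which encodes macrophage-stimulating protein, and GGT1 (r = 0.90), the surface enzyme that splits glutathione. GGT1 averaged 5.74 ± 0.81 in mated arrays, 5.93 ± 0.82 in SP-infused arrays and 5.85 ± 0.74 in control arrays (SD, n = 8 each).

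ENPEP (aminopeptidase A), which turns angiotensin II into angiotensin III, had higher means in mated and SP-infused arrays than in control arrays, by less than the spread. In replicate order its values were 9.23, 9.31, 6.46, 9.40, 9.02, 10.2, 9.44 and 8.71 in mated arrays. They were 9.28, 9.51, 9.42, 9.03, 9.04, 8.41, 9.14 and 8.48 in SP-infused arrays, and 7.66, 8.85, 6.26, 8.95, 8.85, 9.19, 9.09 and 9.02 in control arrays. The SP-infused arrays lay between 8.41 and 9.51, whereas mated array 3 and control arrays 1 and 3 lay far below the rest.

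For ENPEP mated minus control was 0.49 (SE 0.42, adjusted p = 0.659, limma) and SP-infused minus control 0.56 (SE 0.42, adjusted p = 0.891), while mated minus SP-infused was -0.06 (adjusted p = 0.998). The mated against control difference was 0.85 without mated array 3 (adjusted p = 0.348) and 0.17 without control array 3 (adjusted p = 0.891). It thus depended on single arrays of either group, as did the SP-infused against control difference, which was 0.24 without control array 3.

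LNPEP, the insulin-regulated aminopeptidase that degrades oxytocin and vasopressin, was the steadiest of the 7. Mated arrays ran from 8.66 to 9.13 (median 8.80), SP-infused arrays from 8.43 to 9.14 (median 8.77) and control arrays from 7.85 to 9.21 (median 8.68). LNPEP had a mated minus control difference of 0.18 (SE 0.14, adjusted p = 0.625, limma), SP-infused minus control 0.11 (adjusted p = 0.919) and mated minus SP-infused 0.08 (adjusted p = 0.998). Control array 1, the narrow one, was the lowest of all in LNPEP, and without it mated minus control was 0.07.

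LNPEP lies on chromosome 2 next to ERAP2 and ERAP1, related aminopeptidases that trim peptides for antigen presentation. ERAP1 averaged 7.86 in mated arrays, 7.70 in SP-infused arrays and 7.66 in control arrays, and ERAP2 7.82, 7.68 and 7.61. The genes most like LNPEP were KIAA1429 (r = 0.91), a subunit of the RNA methylation complex, and NPEPPS (r = 0.90), the puromycin-sensitive aminopeptidase. Of 8 genes listed for the vesicles that carry LNPEP with the glucose transporter SLC2A4, 7 were measured and 0 passed an unadjusted p under 0.05 in any comparison.

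MME (neprilysin), which degrades enkephalins, tachykinins and natriuretic peptides, followed ENPEP. In replicate order its values were 10.1, 10.2, 8.30, 10.3, 9.86, 10.9, 10.5 and 9.75 in mated arrays. They were 10.3, 10.6, 9.50, 10.5, 10.1, 9.80, 9.61 and 10.1 in SP-infused arrays, and 8.36, 9.60, 8.78, 9.92, 9.82, 10.2, 10.2 and 10.1 in control arrays. The same 3 arrays, mated 3, control 1 and control 3, were again the lowest.

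For MME mated minus control was 0.37 (SE 0.30, adjusted p = 0.648, limma), SP-infused minus control 0.42 (SE 0.30, adjusted p = 0.891) and mated minus SP-infused -0.06 (adjusted p = 0.998). Mated minus control was 0.61 without mated array 3 (adjusted p = 0.361) and 0.19 without control array 1 (adjusted p = 0.880). SP-infused minus control was 0.24 without control array 1.

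ACE, which makes angiotensin II and inactivates bradykinin, had its highest values in some of the arrays where MME was low. Mated arrays ran from 5.64 to 7.26 (median 6.02), SP-infused arrays from 5.57 to 6.29 (median 6.00) and control arrays from 5.53 to 6.76 (median 5.90). Mated arrays 5 and 3 and control arrays 1 and 3 were the highest, at 7.26, 6.93, 6.76 and 6.74. Mated minus control was 0.13 (SE 0.22), a difference that was -0.022 without mated array 5. SP-infused minus control was -0.12 (adjusted p = 0.940, limma), and -0.028 without control array 1. The difference of mated and SP-infused arrays, a description like mated minus control, was 0.25, and 0.10 without mated array 5.

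ACE correlated with the mean of 12 ciliated cell genes at r = 0.61 (rho 0.68) and with that of 22 T and NK cell genes at r = 0.57 (rho 0.45). Macrophage and dendritic cell genes were close to this, at r = 0.54 (rho 0.45), and mast cell genes were opposed, at r = -0.48 (rho -0.25). Endothelial genes gave r = -0.00052 (rho 0.10). The genes most like ACE were RENBP (r = 0.86), a renin-binding epimerase of sugar metabolism, and GAS2L2 (r = 0.84), known from ciliated cells. The ciliated mean ran from 6.06 to 7.53 in mated arrays, 6.29 to 7.51 in SP-infused arrays and 6.47 to 7.77 in control arrays. Its part in the values of ACE was not tested.

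The plot of differences sets the comparisons side by side. Mated against control and SP-infused against control share the 8 control arrays, so that both move together with any array of that group.

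**Figure D2:**
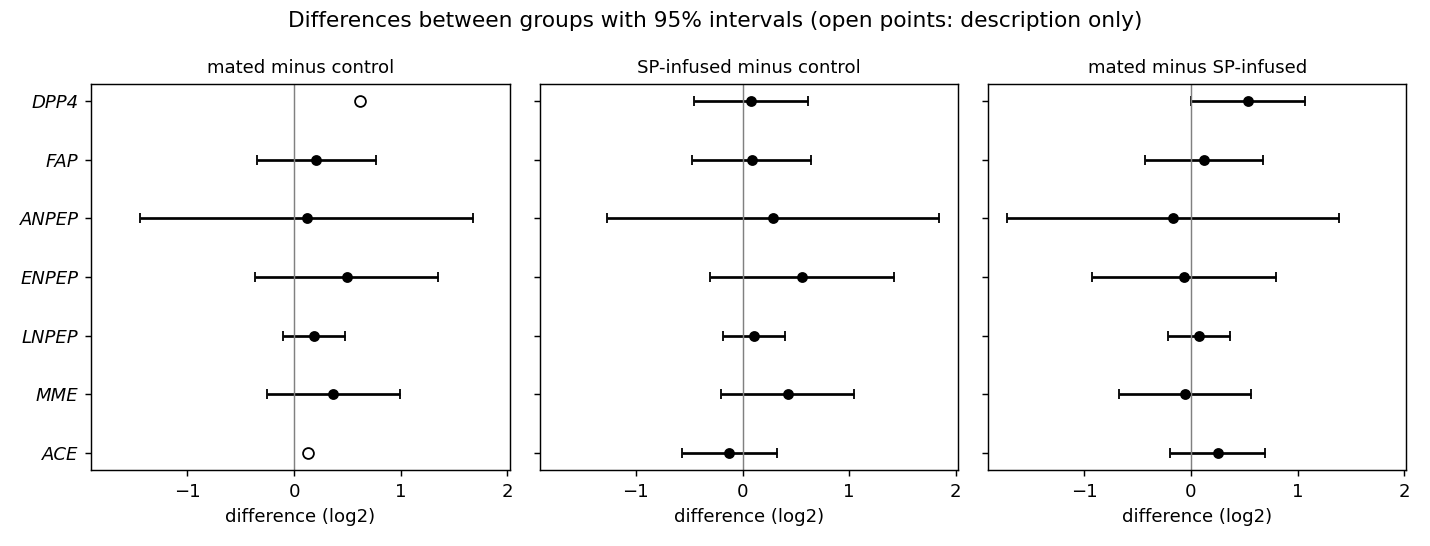
Differences in log2 value (x axis) of the 7 peptidases for mated minus control, SP-infused minus control and mated minus SP-infused, points with 95% intervals from the fit over 24 arrays, except that DPP4 and ACE in mated minus control, which are descriptions, have a point alone. The mated minus SP-infused intervals of DPP4 and ACE are drawn but are read as descriptions too. The intervals of ANPEP are the widest, at -1.44 to 1.68 in mated minus control, and those of LNPEP the narrowest.

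Against control, 7 of 7 means were higher in mated arrays and 6 of 7 in SP-infused arrays, where 38.9% and 39.2% of all probe sets were. The median differences were 0.21 and 0.11. The median over all probe sets was -0.05 and -0.04, and over those with 1 symbol -0.04 and -0.03. In mated against SP-infused arrays 4 of 7 were higher, where 46.3% of all probe sets were, with a median of 0.08 against -0.01 over all probe sets. The 7 genes vary together and share the control arrays, and DPP4 and ACE were chosen with values in mated sows known. These counts and medians are therefore a description, and nothing is read from them.

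The clearest structure among the peptidases ran across arrays and not between treatments. FAP, ENPEP and MME were low together in mated array 3 and in control arrays 1 and 3. For ENPEP these arrays had 6.46, 7.66 and 6.26 where the next lowest array had 8.41, for MME 8.30, 8.36 and 8.78 where the next had 9.50, and for FAP 7.45, 7.15 and 7.38 where the next had 7.70.

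The same arrays were the lowest in AGTR2, the type 2 receptor of angiotensin II, which had 5.44 in mated array 3, 4.81 in control array 1 and 3.62 in control array 3, where the next lowest array had 8.02. COL12A1, a collagen associated with fibrils, was the gene most like both ENPEP (r = 0.94) and MME (r = 0.93). Next were the serotonin receptor HTR2A for ENPEP (r = 0.93) and NDUFB5 for MME (r = 0.92). ACE was high in these 3 arrays, ranking within the 4 highest of 24.

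**Figure D3:**
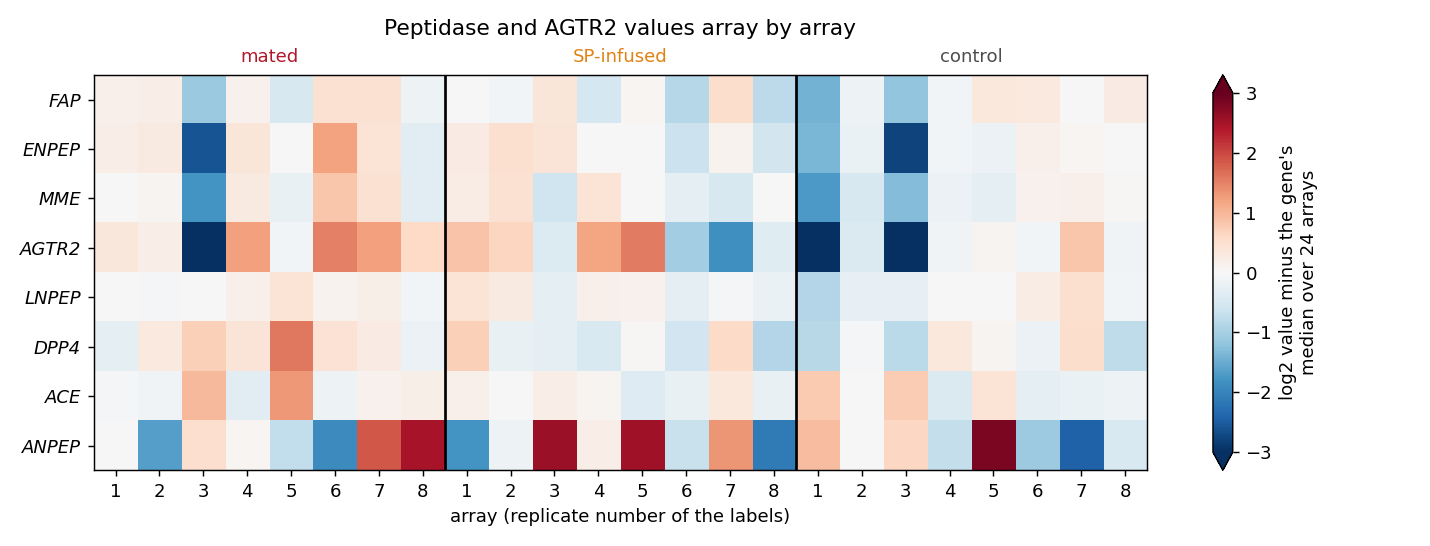
Log2 values of the 7 peptidases and AGTR2 (rows) in each array (columns, by group and replicate number), as the difference from the gene's median over 24 arrays, with colours ending at 3 in either direction. FAP, ENPEP, MME and AGTR2 are blue together in mated array 3 and control arrays 1 and 3, where ACE is red, and ANPEP varies in every group.

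Over 24 arrays ENPEP correlated with MME at r = 0.86 (rho 0.75, and 0.79 without the 2 arrays farthest from the median) and with FAP at r = 0.82 (rho 0.76, and 0.76 without 2 arrays). FAP with MME gave r = 0.68 but rho 0.43, and 0.47 without 2 arrays. The 2 arrays left out were those farthest from the median of a single gene of the pair, so they differed between pairs. Mated array 3 stayed in both pairs of FAP, and control array 1 stayed in ENPEP with MME. The values without 2 arrays are thus not set against each other, and they do not show a pair without all the low arrays. ACE was opposed to MME (r = -0.65, rho -0.51) and to ENPEP (r = -0.56, rho -0.28), and the second relation came to -0.28 without 2 arrays. LNPEP correlated with MME at r = 0.66 (rho 0.73, and 0.60 without 2 arrays) and with DPP4 at 0.64 (rho 0.58, and 0.59 without 2 arrays), which was the closest relation of DPP4 to another of the peptidases. ANPEP had r of -0.34 to 0.26 with the other 6, with rho -0.44 for MME and 0.44 for ACE. In all, 21 pairs of peptidases were compared.

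Marker lists moved with this pattern. The mean of 13 stromal genes correlated with FAP at r = 0.75 (rho 0.66), with ENPEP at 0.65 (rho 0.72) and with MME at 0.54 (rho 0.54). The mean of 22 T and NK cell genes went the other way, at r = -0.74 with MME (rho -0.59) and -0.66 with ENPEP (rho -0.50). Without the 2 arrays farthest from the median of that mean these were -0.57 and -0.43. This was not particular to T and NK cells. B and plasma cell genes were at r = -0.62 with MME (rho -0.35) and -0.67 with ENPEP (rho -0.37). With MME, macrophage and dendritic cell genes were at -0.53 (rho -0.55) and ciliated cell genes at -0.56 (rho -0.58). These relations came from 77 pairs of a peptidase and a marker list.

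Mated array 3 also had the mean of 7 B and plasma cell genes 1.41 above the average array and that of 7 neutrophil genes 0.92 above it. Control arrays 1 and 3 were at 0.27 and 0.14 for B and plasma cell genes and at 0.13 and -0.22 for neutrophil genes, so they did not share this. Stromal means were 0.16, 0.33 and 0.51 below the average array in mated array 3, control array 1 and control array 3. This was not particular to them. SP-infused arrays 8 and 6 deviated by -0.37 and -0.31, with ENPEP at 8.48 and 8.41 and MME at 10.1 and 9.80. The part of cell content in the values of mated array 3 and control arrays 1 and 3 was not tested.

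**Figure D4:**
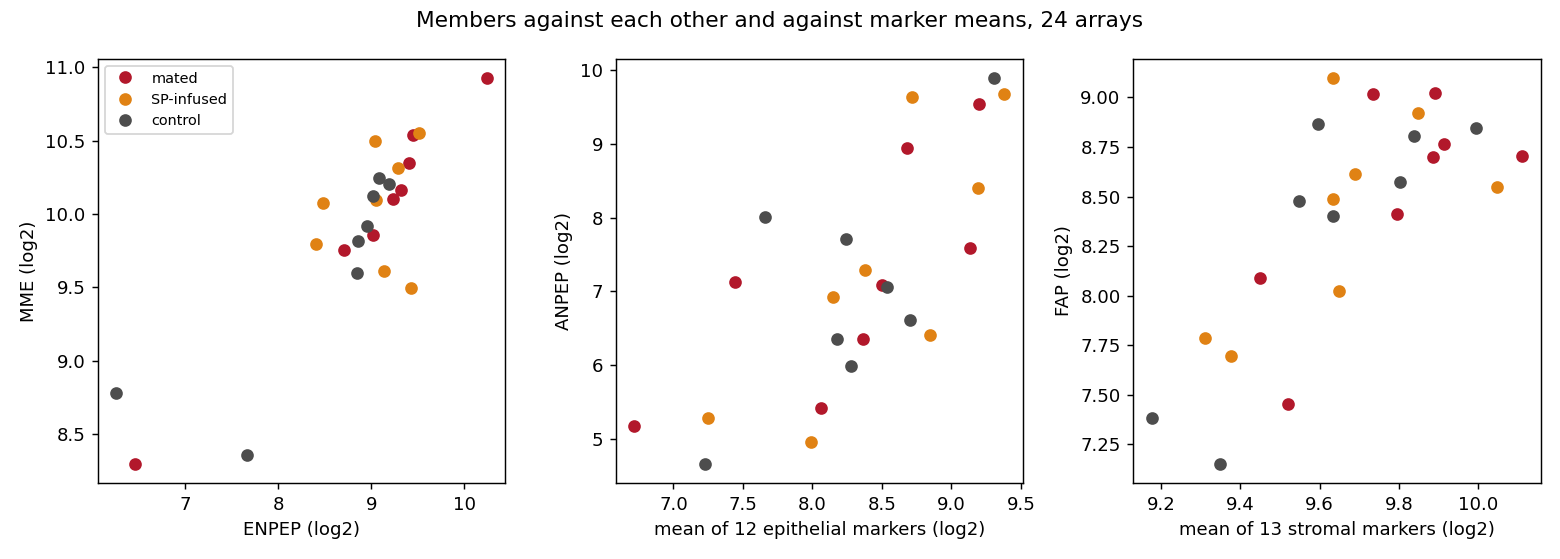
Log2 values of MME against ENPEP (left), ANPEP against the mean of 12 epithelial markers (middle) and FAP against the mean of 13 stromal markers (right), a point per array coloured by group. Correlations over 24 arrays are 0.86, 0.73 and 0.75, and mated, SP-infused and control arrays mix along each trend.

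The substrates, receptors and partners of these enzymes were read from lists. Of 13 listed renin-angiotensin genes other than the peptidases, 8 were measured and 0 passed an unadjusted p under 0.05. AGTR2 had the widest difference of those named, with means of 9.94 ± 1.90 in mated arrays, 9.94 ± 1.18 in SP-infused arrays and 8.48 ± 2.68 in control arrays (SD, n = 8 each). Both differences from control were 1.46 with adjusted p = 0.555 and 0.891 (limma), and the control mean includes the low arrays described above. The mineralocorticoid receptor NR3C2 had 7.72 in mated arrays, 7.65 in SP-infused arrays and 7.27 in control arrays. CTSA, with the lowest unadjusted p of the list in mated against control, had 8.86 in mated and 8.59 in control arrays (adjusted p = 0.487, limma).

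Of 32 listed genes for peptides that the enzymes cut, 26 were measured. None was past an unadjusted p under 0.05 in mated against control, and the median difference was -0.08. In SP-infused against control 2 were lower, GHRH, the growth hormone releasing hormone, by -0.22 and VIP, vasoactive intestinal peptide, by -0.19, with a median of -0.13. Among all probe sets 3.76% were lower there, and nothing particular to the peptides is read from 2 of 26. VIP stood at 2.75 in SP-infused and 2.94 in control arrays, near the bottom of the scale.

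OXT, which encodes oxytocin, a substrate of LNPEP, had 5.42 ± 1.69 in mated arrays, 4.72 ± 0.91 in SP-infused arrays and 4.46 ± 0.41 in control arrays (SD, n = 8 each). The highest mated array had 8.41 and the mated median was 4.51, close to the SP-infused and control medians of 4.38 and 4.37, so the mated mean rested on a minority of arrays (adjusted p = 0.492, limma). CXCL9, a chemokine that DPP4 trims, had 5.63 in mated arrays, 5.18 in SP-infused arrays and 5.12 in control arrays (mated minus control 0.51, adjusted p = 0.452).

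Of 42 listed receptors for these peptides, 30 were measured, and 3 (10%) were higher and 0 lower at an unadjusted p under 0.05 in mated arrays against control, where 2.88% of all probe sets were higher, and likewise 3 and 0 in SP-infused arrays against control, where 1.4% were. These counts share the 8 control arrays, and nothing particular to the receptors is read from them. CALCRL, the receptor of adrenomedullin and of calcitonin gene related peptide, averaged 8.34 ± 0.43 in mated arrays, 8.12 ± 0.33 in SP-infused arrays and 7.60 ± 0.47 in control arrays (SD, n = 8 each). Its differences from control were 0.75 (adjusted p = 0.296, limma) and 0.52 (adjusted p = 0.891). TACR3, the receptor of neurokinin B, differed from control by 1.04 in mated (adjusted p = 0.417) and 1.32 in SP-infused arrays (adjusted p = 0.891). Control arrays 1 and 3, which stood apart above, were the 2 lowest of the 24 in both genes, at 6.84 and 7.25 for CALCRL and at 4.48 and 4.39 for TACR3.

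The third receptor was RAMP2, the partner of CALCRL, in mated arrays (0.33) and NPR3, the clearance receptor of natriuretic peptides, in SP-infused arrays (0.64). Over the 30 receptors the median difference was 0.01 in mated and -0.05 in SP-infused arrays against control.

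Of 14 listed partners and regulators of DPP4, 9 were measured. In mated against control 1 was higher, TFPI, the inhibitor of tissue factor (5.68 in mated and 5.05 in control arrays, adjusted p = 0.326, limma). In SP-infused against control 2 were lower, FN1, fibronectin, which DPP4 binds (9.86 in SP-infused and 10.5 in control arrays), and PLG, plasminogen (4.34 in SP-infused and 4.60 in control arrays), both with adjusted p = 0.891 (limma). PLG was low on the array's scale, with both means under 5. Of all probe sets 2.88% were higher in mated and 3.76% lower in SP-infused arrays against control. Nothing particular to the partners is read from counts this small.

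Other peptidases of the cell surface or the secretory route did not share a direction. Of 42 listed, 29 were measured, and in mated against control 2 were higher and 2 lower at an unadjusted p under 0.05, with 14 positive and 15 negative differences and a median of -0.03. The shares over all probe sets were 2.88% higher and 8.52% lower. The higher pair was NAALAD2, a glutamate carboxypeptidase (5.64 in mated and 5.25 in control arrays), and XPNPEP2, which removes a residue before proline (4.52 in mated and 4.23 in control arrays). XPNPEP2 was low on the array's scale, with both means under 5. The lower pair was GGT5, a gamma-glutamyl enzyme (5.35 in mated and 5.60 in control arrays), and TMPRSS2, a membrane serine protease of epithelia (6.84 in mated and 7.51 in control arrays).

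In SP-infused against control 1 of the 29 was higher, again NAALAD2 (5.76 in SP-infused and 5.25 in control arrays, adjusted p = 0.891, limma), and 0 were lower, where 1.4% of all probe sets were higher and 3.76% lower. XPNPEP2 was the only one of the 29 past an unadjusted p under 0.05 in mated against SP-infused arrays, at 4.52 in mated and 4.23 in SP-infused arrays (adjusted p = 0.998). The share of all probe sets higher there was 1.52%.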

How the data were processed

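RNA of 24 UTJ samples (8 mated, 8 SP-infused, 8 control, grouped by GEO's labels alone) was measured on Affymetrix arrays. The authors made the deposited log2 values with RMA (background adjustment, quantile normalization and summary per probe set) and compared groups with limma, without versions in the processing notes. Of 27558 probe sets, 13257 carry a single symbol in the annotation, 427 carry more and 13874 have none.

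The deposited values were used as they are in R 4.3.3 with limma 3.58.1. A mean per group was fitted over 24 arrays, with empirical Bayes moderation, two-sided tests and Benjamini-Hochberg adjustment over all probe sets in each of 3 comparisons. The fit was also run on simulated data with independent arrays. These hold no arrays that share a sow and no outlying arrays, so they do not show how the fit deals with either. Intervals cover 95%. Arrays have no read depth, and precision rests on 8 arrays a group from 4 sows. Likeness is Pearson's r over 24 arrays among genes with 1 symbol.

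The members and gene lists were chosen with earlier results of these data known. Named are all 7 members, the genes most like DPP4 (5) and like every other member (2), and a few neighbours and markers. Some of the genes with the lowest p against control are also named for each list, except the vesicle and cell type lists. TMPRSS2 was named after its values were seen. Alternatives were fits of the 16 arrays compared, a filter on low values (mean log2 of 5 or more), equal array medians, cyclic loess, quantile normalization, a trended robust prior, array weights, a replicate block and leaving out each array. The study's methods and labels give BTS to control sows, while its design text also calls them not inseminated, and directions here follow the labels. Sequences were not used here.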

Additional observations from a re-analysis of the deposited data

Results flagged for a closer look

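Within groups of 8 arrays, 2 of the 21 combinations of a peptidase and a group had an array far from the others, judged by its gap to the nearest array as a share of the group's range (Dixon's test). Chance flags about 1 in 20 such groups. ENPEP was lowest in mated array 3, at 6.46 where the nearest mated array had 8.71, a gap share of 0.595. MME was lowest in the same array, at 8.30 where the nearest mated array had 9.75, a gap share of 0.554. The values of ENPEP and MME correlate over the arrays, so these are not independent findings.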

How the results depend on the processing

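None of the 21 differences of the peptidases passed an adjusted p of 0.05 under any of 32 settings, and 27 of 672 recomputed values changed sign. With array weights SP-infused minus control came to -0.069 for DPP4 and -0.10 for FAP. The other changes of sign came from leaving out single arrays. These gave SP-infused minus control ranges of -0.041 to 0.19 for DPP4, -0.081 to 0.18 for FAP, -0.055 to 0.69 for ANPEP and -0.0033 to 0.19 for LNPEP. Mated minus control ranged from -0.022 to 0.23 for ACE and from -0.22 to 0.53 for ANPEP, and mated minus SP-infused from -0.51 to 0.17 for ANPEP, -0.24 to 0.30 for ENPEP and -0.19 to 0.19 for MME. For DPP4 mated minus control stayed between 0.45 and 0.72 without single arrays and between 0.45 and 0.71 under the other alternatives. These ranges are descriptions, since values of DPP4 in mated sows were known when it was chosen. The number of probe sets past the adjusted threshold in mated against control ranged from 0 to 2 without single arrays, with 2 without control array 7 and 1 without mated array 2. Scaling moved the split of unadjusted calls in mated against control, with 1543 higher and 1154 lower at equal array medians and 1304 and 1437 after cyclic loess, against 793 and 2349 as deposited. In SP-infused against control the split was 611 higher and 675 lower at equal medians, against 385 and 1035. In mated against SP-infused it was 696 higher and 331 lower at equal medians, against 419 and 501. Replicate numbers did not pair the arrays, with same-numbered deviations correlating at -0.40 to 0.50 and over 0.1 in 9 of 24 pairs. With a replicate block mated minus control of DPP4 was 0.62 and 0 probe sets passed in each comparison. A mean over several probe sets of a gene could not be run, since each peptidase has 1.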
